A study of Homo sapiens with 12 samples.

Results

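HEK293 cells with a knockdown of EXT1 were compared between suspension and adherent culture: 3 libraries of EXT1 knockdown cells grown in suspension, shaken at 120 rpm in EX-CELL 293 without serum, against 3 libraries of the same line grown attached in T75 flasks in DMEM with fetal bovine serum. The 6 libraries were chosen by their labels alone, out of 12 in the series; the other 6 are wild-type HEK293 cells in the same pair of cultures, used here only to ask where the knockdown line differed. HEK293 is an immortalised line from human embryonic kidney, and poly(A) RNA of all samples was sequenced. Suspension and adherent cells differed at once in attachment, medium, serum, shaking and the use of trypsin at harvest (adherent cells only), after 5 passages for every group, so these cannot be told apart. The method of the knockdown and whether the line is 1 clone or a pool are not in the labels. Nor is it stated that replicates are separate cultures, so the p-values speak to the scatter among these libraries, possibly a technical one.

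EXT1 is a subunit of the enzyme that polymerises heparan sulfate, the sulfated sugar chain carried by syndecans, glypicans and perlecan, which binds growth factors such as FGFs and BMPs and tethers cells to matrix. Attached cells hold on to matrix through integrins, and serum supplies lipoproteins and growth factors. HEK293 cells in suspension are a standard host for making viral vectors and proteins, and the series concerns that use.

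Libraries held 15.8 ± 1.52 M reads in knockdown suspension cells and 16.4 ± 2.15 M reads in knockdown adherent cells (SD, n = 3 each). EXT1 itself stood at 15.4, 13.1 and 15.3 CPM (counts per 1e6 reads) in suspension knockdown libraries and at 12.5, 12 and 11.9 CPM in adherent ones, all below the 6 wild-type libraries, which lay between 47.9 and 54.6 CPM. The EXT1 difference between cultures within the knockdown line was small (log2 fold change 0.27 ± 0.10, SE; edgeR adjusted p = 0.0246) and did not pass in every alternative fit. Of 14 HEK293 lineage markers, 13 reached 1 CPM, with a summed level of 1174 to 1319 CPM in suspension and 1020 to 1052 CPM in adherent libraries. None of 12 leukocyte or 11 hepatocyte markers reached 1 CPM, and CD3D, FGB, FGA and APOH had no read. Of 15 epithelial markers, 7 reached 1 CPM and summed to 443 to 496 CPM in suspension and 622 to 647 CPM in adherent libraries, while GRHL2 had no read. Of 14 fibroblast markers, 8 reached 1 CPM and summed to 94.9 to 110 CPM in suspension and 88.9 to 95.6 CPM in adherent libraries. Reads from mitochondrially encoded protein genes took 6.51 ± 1.0% of the library in suspension and 4.69 ± 0.25% in adherent cells (SD, n = 3 each; exact two-sided permutation test, p = 0.1, the smallest that 3 against 3 allows). In bulk RNA, a lower level cannot be split into fewer cells with the transcript and less transcript per cell.

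Culture moved a large part of the measured transcriptome of the knockdown line. Of 17115 genes with enough reads, 4579 rose and 4955 fell in suspension (edgeR quasi-likelihood test, Benjamini-Hochberg adjusted p of 0.05), which is 26.8% and 29% of the genes tested, and 55.7% in either direction. Most changes were modest: 1687 genes (9.86%) rose and 770 (4.5%) fell by at least 2-fold. The median log2 fold change over all genes was -0.01. The 3 libraries of each culture did not overlap for 63.8% of genes. These shares are the background against which every gene group below is read, because a group whose shares of higher and lower members lie near them does not stand apart from the rest of the genes. The groups and their members were chosen with earlier results of these data known. A departure from these shares therefore describes a group and does not test it.

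The largest rise was of BST2, which encodes tetherin, an interferon-induced membrane protein that holds budding virus particles at the cell surface. BST2 stood at 42.8, 42.5 and 47.9 CPM in suspension knockdown libraries, against 0, 0 and 0.285 CPM in adherent ones. It was thus close to silent in attached cells and well expressed in every suspension library. The 2182 suspension reads against 5 adherent reads, all from 1 library, give a ratio of 432.5 (95% exact interval 185.1 to 1333), and the edgeR adjusted p was 1.12e-14. Like all such intervals here, it covers counting error of the pooled reads only. It leaves out the scatter between libraries and the copying of molecules by PCR. The neighbouring long noncoding RNA BISPR, which starts close to BST2 on the opposite strand, moved with it at 3.87, 2.68 and 3.81 CPM in suspension, against 0, 0 and 0.057 CPM in adherent libraries (edgeR adjusted p = 1.61e-08).

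The BST2 promoter is shown because interferon-stimulated genes are known by a shared element, the ISRE, searched here as GAAA, any 2 letters and GAAA again. In the 250 bases before the RefSeq start of BST2 (GRCh38.p14, minus strand, chr19:17405631-17405880) 2 overlapping matches lie together, shown in capitals, ending 114 bases before the start.
BST2: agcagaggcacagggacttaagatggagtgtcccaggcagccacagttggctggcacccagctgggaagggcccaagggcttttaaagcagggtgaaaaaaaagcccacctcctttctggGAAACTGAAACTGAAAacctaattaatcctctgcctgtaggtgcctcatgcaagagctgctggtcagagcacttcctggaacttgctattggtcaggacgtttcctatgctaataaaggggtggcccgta
On either strand, 3.02% of 35116 promoter entries of this length hold the motif, and 17 of the 22 interferon-stimulated genes present in the table do. A match describes letters only: of 385 measured genes with an ISRE match, 108 rose and 115 fell, close to the shares of all genes.

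CGA, the alpha subunit shared by the pituitary and placental glycoprotein hormones, rose next to BST2 in size and was far more abundant. It stood at 276, 303 and 308 CPM in suspension and at 3.57, 4.39 and 4.67 CPM in adherent knockdown libraries, with no overlap, a 70.3-fold difference (log2 6.13 ± 0.12, SE; edgeR adjusted p = 1.11e-17). INPP5D, which encodes the lipid phosphatase SHIP1 of blood cells, had 21.3, 19.9 and 20.3 CPM in suspension and 0.461, 0.585 and 0.114 CPM in adherent cells, a ratio of 55.29 from 1004 and 18 reads (95% exact interval 34.8 to 93.67). SULT1A1, a sulfotransferase for phenols, had 108, 112 and 123 CPM in suspension and 4.38, 4.61 and 4.56 CPM in adherent cells, although reads could be shared with near-identical SULT1A copies. The annexin ANXA1, a calcium-dependent membrane-binding protein, rose to 124, 138 and 132 CPM in suspension, against 8.93, 9.14 and 9.06 CPM in adherent cells. The other 10 of the 15 largest protein-coding rises were VSTM2B, PLXNA4, RINL, LSAMP, PCBP3, NTNG2, ETV4, FHAD1, SPRY4 and AMBN. Among these are PLXNA4, LSAMP and NTNG2, a plexin receptor and adhesion proteins known from axon guidance, and all 10 had no overlap between cultures, with fitted log2 changes between 3.94 for AMBN and 5.44 for VSTM2B.

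Of the falls the largest was that of STS, steroid sulfatase, on the short arm of the X chromosome. STS had 0.0678, 0.122 and 0.224 CPM in suspension knockdown libraries, against 16.9, 16.2 and 17.7 CPM in adherent ones. The 7 suspension reads against 825 adherent reads give a level 118.9-fold lower in suspension (95% exact interval 57.45 to 296.7; edgeR adjusted p = 1.44e-12). SOX11, a transcription factor of embryonic neural progenitors, fell to 2.98, 3.47 and 2.69 CPM in suspension, against 76.5, 76.2 and 80.7 CPM in adherent cells (log2 -4.67 ± 0.12, SE; edgeR adjusted p = 4.24e-16). PDGFD, a platelet-derived growth factor, fell to 0.475, 0.426 and 0.281 CPM, against 15.2, 14.6 and 13.5 CPM in adherent cells (19 and 700 reads, a level 37.17-fold lower in suspension, 95% exact interval 23.62 to 62.11). The remaining large falls were of ID1, ID3 and SMAD6 (taken up next), PUDP, SERPINB9, KRT19, TMEM47, SLITRK3, FUT9, PKP3, LRRN1 and SAMD11. Each of these 15 genes had suspension values below all adherent values.

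**Figure D1:**
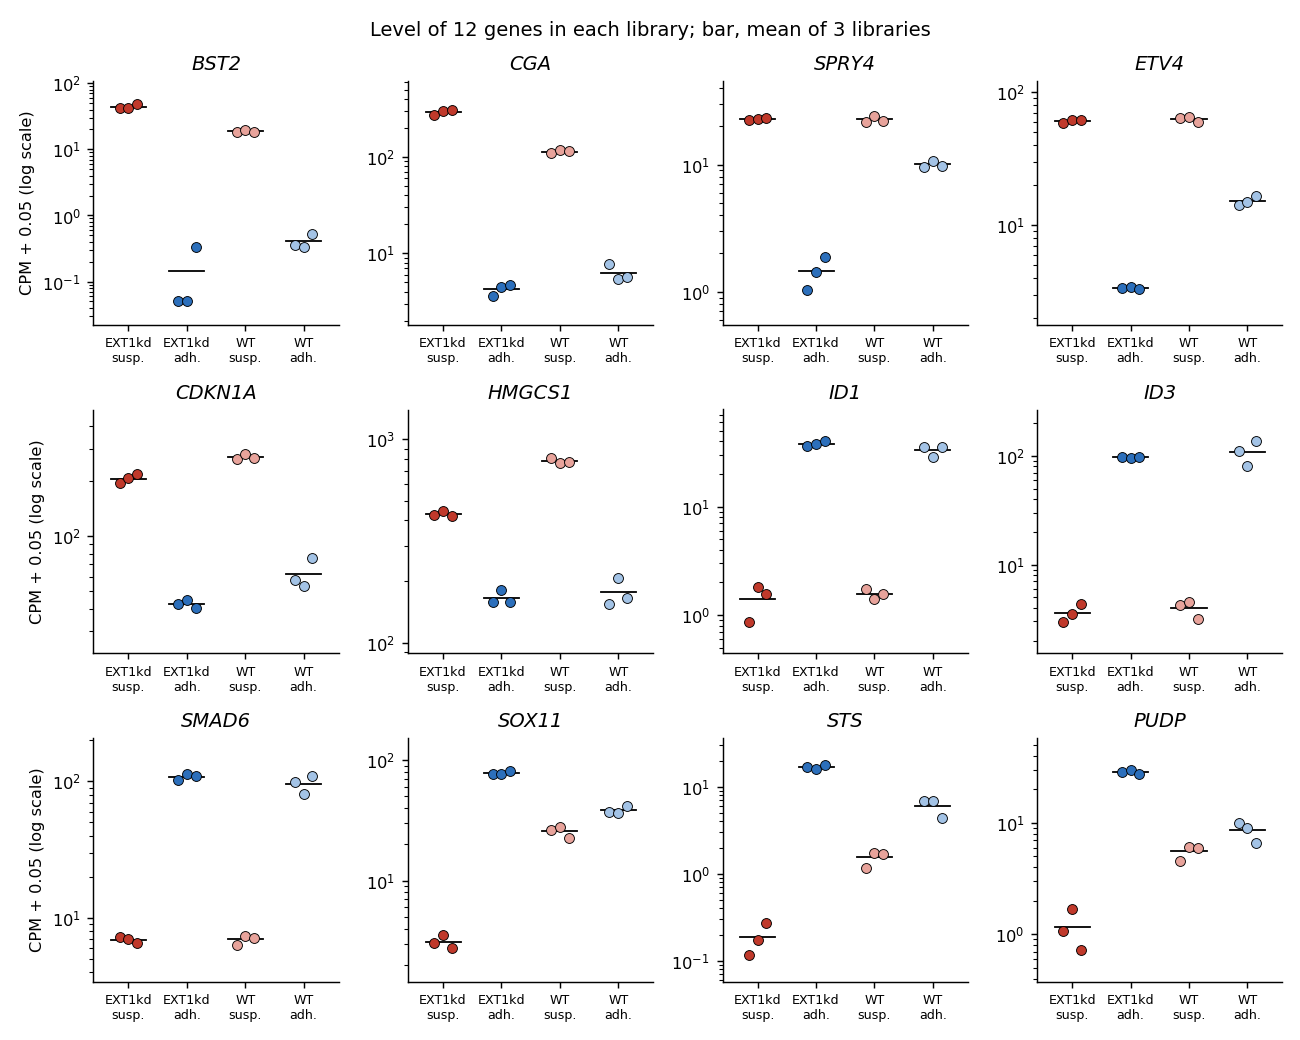
Expression of 12 genes in single libraries, as CPM + 0.05 on a log axis, in knockdown suspension, knockdown adherent, wild-type suspension and wild-type adherent cells (points are libraries, bars the mean of 3). BST2, CGA, SPRY4, ETV4, CDKN1A and HMGCS1 were higher in suspension, while ID1, ID3 and SMAD6 fell in both lines and SOX11, STS and PUDP fell further in the knockdown line.

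Targets of BMP signalling fell together. BMPs act through SMAD1, SMAD5 and SMAD9, which switch on ID1 to ID4, inhibitors of helix-loop-helix factors, and the inhibitory SMAD6 and SMAD7, which close a feedback loop. Of 18 measured TGF-beta and BMP targets, 12 fell and 4 rose (median log2 -0.81), against 29% lower and 26.8% higher among all genes. ID1 had 0.814, 1.76 and 1.51 CPM in suspension and 36.0, 37.6 and 40.4 CPM in adherent knockdown cells, 27.3-fold lower (log2 -4.77 ± 0.17, SE; edgeR adjusted p = 4.4e-14). ID3 had 2.92, 3.47 and 4.26 CPM in suspension and 97.1, 96.2 and 97.8 CPM in adherent cells, and SMAD6 had 7.26, 6.93 and 6.56 CPM in suspension and 102, 112 and 110 CPM in adherent cells. In all 3 genes the cultures stood far apart with little scatter. The remaining pathway members fell by less: SMAD7 by 2.51 on the log2 scale, ID2 by 2.03, SKIL, a brake on SMAD activity, by 1.56, ID4 by 1.5 and the decoy receptor BAMBI by 1.34. The members that rose included the latent TGF-beta binding proteins LTBP1 and LTBP2 and the ligand gene TGFB2.

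The SMAD6 promoter (RefSeq, GRCh38.p14, plus strand, chr15:66701986-66702235) is shown for the SMAD-binding palindrome GTCTAGAC, in capitals, which ends 4 bases before the start.
SMAD6: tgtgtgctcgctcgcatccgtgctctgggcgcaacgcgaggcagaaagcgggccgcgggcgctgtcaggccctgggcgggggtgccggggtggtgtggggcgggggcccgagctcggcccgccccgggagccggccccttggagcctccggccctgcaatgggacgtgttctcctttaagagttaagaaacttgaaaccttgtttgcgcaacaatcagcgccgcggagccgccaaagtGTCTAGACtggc
The same 8 letters occur in 0.18% of all promoter entries, and in 1 of 15 TGF-beta and BMP targets present in the table, SMAD6 itself.

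Feedback targets of FGF and ERK signalling moved the other way. ERK activity induces the ETS factors ETV1, ETV4 and ETV5, the Sprouty and SPRED inhibitors and the phosphatases DUSP4 and DUSP6. Of 21 measured members, 16 rose and 4 fell (median log2 0.90). ETV4 had 58.9, 61.4 and 61.5 CPM in suspension and 3.28, 3.36 and 3.25 CPM in adherent knockdown cells (log2 4.2 ± 0.10, SE; edgeR adjusted p = 2.19e-16). ETV5 had 45.9, 47.4 and 47.3 CPM in suspension and 5.76, 4.53 and 5.13 CPM in adherent cells. SPRY4, an inhibitor of receptor tyrosine kinase signalling, had 22.3, 22.9 and 23.3 CPM in suspension and 0.98, 1.39 and 1.82 CPM in adherent cells. The suspension values of these 3 genes varied by little between libraries and lay far above every adherent value. LIF, a cytokine of the interleukin-6 family, rose by 2.98 on the log2 scale, DUSP4 by 1.52 and DUSP6 by 1.27. The Sprouty gene SPRY2 did not pass, at 18.5, 21.2 and 21.9 CPM in suspension and 19.4, 21.1 and 20.6 CPM in adherent cells, and MYC, CCND1, DUSP5 and HMGA2 fell.

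Immediate early genes, transcribed within minutes of a stimulus, showed the same direction: 17 of 23 rose and 1, MYC, fell (median log2 0.70), with MYC and FOSL1 held by both lists. EGR1 had 45.5, 37.2 and 42.6 CPM in suspension and 4.55, 6.21 and 6.33 CPM in adherent cells (log2 2.88 ± 0.13, SE; edgeR adjusted p = 1.77e-12). FOSL1, IER3 and FOS rose by 1.76, 1.61 and 1.58 on the log2 scale. DUSP1, another early gene, did not pass (-0.03). These transcripts are also known to respond to handling, and harvest differed between the cultures, so a part played by harvest cannot be told apart from culture.

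Genes of cholesterol synthesis and uptake rose. Cells that lack sterol release the transcription factor SREBP2, encoded by SREBF2, which switches on the mevalonate pathway and sterol uptake. Of 27 measured members, 21 rose and 2 fell (median log2 0.52). HMGCS1, which makes HMG-CoA, had 423, 445 and 419 CPM in suspension and 158, 182 and 158 CPM in adherent knockdown cells, 2.59-fold higher (log2 1.37 ± 0.09, SE; edgeR adjusted p = 4.06e-10). IDI1, the isopentenyl diphosphate isomerase, rose by 1.63, MVD by 1.53 and INSIG1, the sterol-sensing brake on SREBP, by 1.45. The 2 members that fell were SC5D (-1.14) and DHCR7 (-0.38), which act late in the pathway and both lie on chromosome 11, whose genes had a median of -0.37. With chromosome medians removed, 22 members rose and 1 fell.

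SREBF2 itself had 247, 256 and 270 CPM in suspension and 190, 184 and 187 CPM in adherent knockdown cells (log2 0.46 ± 0.06, SE; edgeR adjusted p = 4.27e-06). Its promoter (RefSeq, GRCh38.p14, plus strand, chr22:41832855-41833104) is shown for the classical sterol regulatory element, searched as the 10 letters in capitals, which end 124 bases before the start.
SREBF2: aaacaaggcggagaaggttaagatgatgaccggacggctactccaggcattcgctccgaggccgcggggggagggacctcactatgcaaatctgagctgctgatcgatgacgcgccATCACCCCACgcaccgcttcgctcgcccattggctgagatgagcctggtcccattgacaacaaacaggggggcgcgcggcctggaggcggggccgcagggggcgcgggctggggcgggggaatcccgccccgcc
These 10 letters occur in 0.03% of promoter entries (12 of 35116) and in 1 of the 20 list members present in the table, which is SREBF2.

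Fatty acid genes were mixed. Of 20 measured, 8 rose and 6 fell (median log2 0.11), or 12 rose and 5 fell with chromosome medians removed (median log2 0.32). FASN, fatty acid synthase, had 1009, 896 and 967 CPM in suspension and 1748, 1567 and 1891 CPM in adherent cells (log2 -0.86 ± 0.10, SE; edgeR adjusted p = 9.62e-07), and SREBF1, which encodes SREBP1, fell by 0.97. Both lie on chromosome 17, with a chromosome median of -0.36. MID1IP1, an activator of acetyl-CoA carboxylase, rose by 2.23, LPIN1 by 1.28 and ACSS2, which makes acetyl-CoA from acetate, by 1.15. PDK4, which turns off pyruvate dehydrogenase, rose by 2.49, and APOE, a carrier of sterol out of cells, by 1.10.

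Targets of p53 rose as a group. HEK293 carries adenovirus proteins that bind p53, so these genes are read here only as a list. Of 23 measured members, 19 rose and none fell (median log2 0.69). CDKN1A, the cell-cycle inhibitor p21, had 194, 208 and 218 CPM in suspension and 42.2, 44.5 and 40.1 CPM in adherent knockdown cells, 4.89-fold higher (log2 2.29 ± 0.10, SE; edgeR adjusted p = 1.54e-12). MDM2, the ligase that degrades p53, had 173, 178 and 168 CPM in suspension and 112, 102 and 107 CPM in adherent cells. FAS, the death receptor, rose by 1.65 and PLK3 by 1.44. GDF15, a stress-induced secreted factor, rested on 249 suspension reads and 7 adherent reads (ratio 35.26, 95% exact interval 16.86 to 88.6). BAX (0.15), SESN2 (0.10), TP53I3 (0.07) and SPATA18 (-0.20) did not pass. Cell-cycle lists sat nearer the background: of 32 replication genes 6 rose and 12 fell, and of 32 mitotic genes 8 rose and 11 fell. Of the replication genes, 10 rose and 7 fell with chromosome medians removed.

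**Figure D2:**
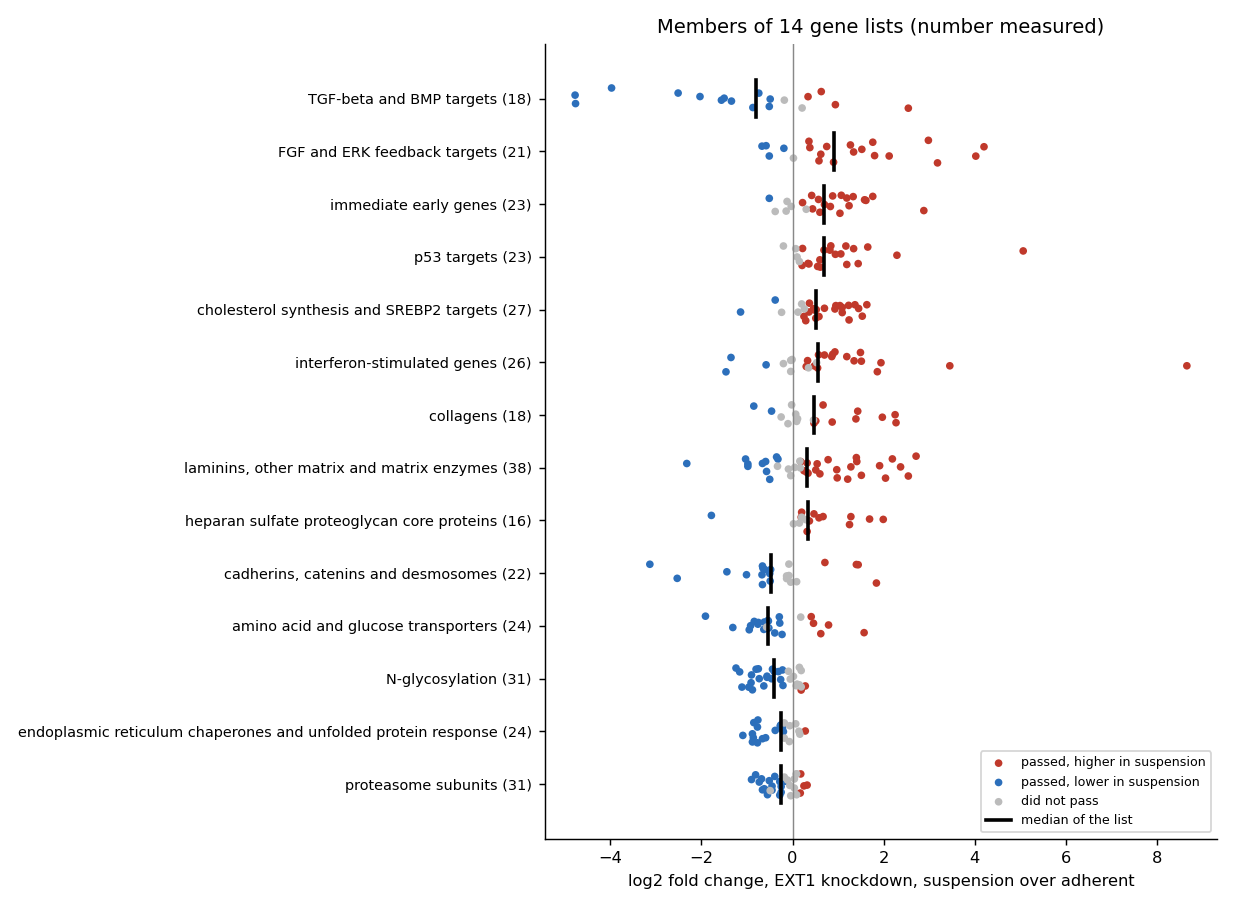
Culture effect (log2 fold change, suspension over adherent, knockdown cells) of each measured member of 14 gene lists, coloured by whether it passed higher, passed lower or did not pass, with a black bar at the list median. The medians ran from -0.81 for TGF-beta and BMP targets to 0.90 for FGF and ERK feedback targets.

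Beyond BST2, interferon-stimulated genes rose at low levels. Of 26 measured, 17 rose and 3 fell (median log2 0.56). IFIT2, which binds foreign RNA, rested on 170 suspension and 15 adherent reads (ratio 11.23, 95% exact interval 6.621 to 20.51). OAS3, a sensor of double-stranded RNA, had 15.5, 14.5 and 14.5 CPM in suspension and 3.8, 4.39 and 3.42 CPM in adherent cells. ISG20 rose by 1.86, IFITM1 by 1.51 and MX1 by 1.19 on the log2 scale, although IFITM genes have near-identical copies. The interferon regulatory factors IRF7 (-1.35) and IRF9 fell, the second on 27 suspension and 75 adherent reads (level 2.803-fold lower, 95% exact interval 1.784 to 4.527). Leukocyte markers, as given above, were at or near 0.

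Genes of the extracellular matrix were mixed, with more rises than falls. Of 38 laminins, other matrix proteins and matrix enzymes, 22 rose and 10 fell (median log2 0.32), and of 18 collagens, 9 rose and 2 fell (median log2 0.46). TNC, the adhesion-modulating tenascin C, had 210, 201 and 205 CPM in suspension and 32.8, 28.9 and 32.5 CPM in adherent knockdown cells, 6.53-fold higher (log2 2.71 ± 0.08, SE; edgeR adjusted p = 1.94e-15). FBN1, the microfibril protein fibrillin 1, rose by 2.54, and the collagens COL5A2 and COL12A1 by 2.27 and 2.25. Against these, EMILIN2 fell by 2.32, the collagen chain COL1A1 by 0.85 and FN1, fibronectin, had 71.5, 67.4 and 68.8 CPM in suspension and 141, 129 and 155 CPM in adherent cells. COL4A1, a basement membrane collagen, did not pass, at a log2 change of 0.07.

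Integrin and focal adhesion genes stood near the middle, with 15 of 33 higher and 9 lower. ITGB1, the common beta chain, did not pass, at 370, 409 and 393 CPM in suspension and 393, 399 and 370 CPM in adherent cells, while ITGB4 rose by 1.86 and ITGA8 fell by 2.28. Cell-cell junction genes fell more often: of 22 cadherins, catenins and desmosomal genes 12 fell and 4 rose (median log2 -0.48). The counts were 12 lower and 5 higher with chromosome medians removed, and the median log2 was then -0.19. CDH2, N-cadherin, had 129, 140 and 133 CPM in suspension and 214, 212 and 212 CPM in adherent cells. PKP3, a desmosomal plakophilin, fell by 3.13 and EPCAM by 0.67, while CDH1, E-cadherin, rose to 24.0, 25.4 and 24.2 CPM in suspension, against 6.51, 6.8 and 7.18 CPM in adherent cells. KRT19, an epithelial keratin, fell to 3.6, 3.59 and 5.72 CPM in suspension, against 67.7, 59.4 and 65.8 CPM in adherent cells.

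Actin-linked lists were likewise mixed. Of 26 SRF and MRTF targets 11 rose and 7 fell: ACTA2, smooth muscle actin, rose by 3.32 and VIL1, villin, had 40 suspension and 9 adherent reads (ratio 4.405, 95% exact interval 2.104 to 10.32), while FLNC, filamin C, fell by 1.86 and CNN2, a calponin, by 1.99. Of 25 YAP and TAZ targets 14 fell and 5 rose (median log2 -0.29), among them CTGF, a matricellular growth regulator, at 7.67, 6.63 and 7.8 CPM in suspension and 13, 12.8 and 12.3 CPM in adherent cells. With chromosome medians removed, 10 YAP and TAZ targets fell and 6 rose.

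Heparan sulfate proteoglycan core proteins rose. Of 16 measured, 11 rose and 1 fell (median log2 0.34). SDC3, a syndecan, had 48.2, 49.1 and 52.5 CPM in suspension and 17, 14.1 and 15.3 CPM in adherent knockdown cells (log2 1.69 ± 0.13, SE; edgeR adjusted p = 4.76e-09). CD44, the hyaluronan receptor that can carry heparan sulfate, rose by 1.99, HSPG2, perlecan, by 1.28 and GPC3, a glypican, by 0.47. Another syndecan, SDC1, had 52.9, 53.8 and 55.9 CPM in suspension and 23.2, 23.6 and 21.7 CPM in adherent cells. GPC5 was the member that fell, on 34 suspension reads and 116 adherent reads (level 3.442-fold lower, 95% exact interval 2.331 to 5.205).

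The enzymes that build and edit the chain were mixed. Of 20 measured, 8 rose and 5 fell (median log2 0.15), and 5 rose when either adherent replicate 3 or suspension replicate 3 was left out. The counts were 5 higher and 3 lower with chromosome medians removed. EXT2, the partner of EXT1 in the polymerase, had 80.7, 80.7 and 93.2 CPM in suspension and 128, 117 and 123 CPM in adherent knockdown cells (log2 -0.53 ± 0.07, SE; edgeR adjusted p = 4.38e-06), and lies on chromosome 11. EXTL3, which starts the chain, fell by 0.67 and NDST1, which removes acetyl groups and adds sulfate, by 0.43. The extracellular 6-O-endosulfatases, which trim sulfate from finished chains, rose: SULF1 had 22.2, 24.0 and 21.9 CPM in suspension and 2.13, 1.97 and 2.39 CPM in adherent cells (log2 3.38 ± 0.20, SE; edgeR adjusted p = 7.21e-11), and SULF2 rose by 1.14. XYLT1, which adds the first sugar of the linker to the core protein, fell to 1.56, 1.52 and 1.68 CPM in suspension, against 6.28, 5.34 and 5.59 CPM in adherent cells. Of the 28 linker and chondroitin or dermatan sulfate genes with XYLT1, 6 rose and 11 fell.

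Genes of the secretory pathway fell, many of them by less than 2-fold. Of 24 endoplasmic reticulum chaperones and unfolded protein response genes, 16 fell and 1 rose (median log2 -0.26). Of 31 N-glycosylation genes, 20 fell and 2 rose (median log2 -0.40), and of 27 COPII and COPI transport genes, 14 fell and 6 rose (median log2 -0.17), or 8 fell without adherent replicate 1. DNAJB11, an HSPA5 co-chaperone, had 40.6, 42.9 and 41.7 CPM in suspension and 84.9, 93.9 and 87.4 CPM in adherent knockdown cells (log2 -1.09 ± 0.07, SE; edgeR adjusted p = 4.76e-10). CALR, calreticulin, fell by 0.77, HSPA5, the main chaperone BiP, by 0.26, while HSP90B1, the chaperone GRP94, rose by 0.28. STT3B and STT3A, the catalytic subunits of oligosaccharyltransferase, fell by 0.88 and 0.75, ALG1 by 1.24 and ALG5 by 1.11. SEC23A, a COPII coat subunit, fell by 0.70 on chromosome 14.

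These counts changed to different extents when chromosome medians were removed. Of the 31 N-glycosylation genes 16 lie on the 9 chromosomes with a median of -0.2 or lower, as do 12 of the 24 chaperone genes and 12 of the 27 transport genes. Of all 17115 tested genes, 906 lie on chromosome 3, 604 on 4, 597 on 8, 889 on 11 and 308 on 13. A further 546 lie on chromosome 14, 1055 on 17, 273 on 18 and 443 on 22. Here and below, no excess of list members on these 9 chromosomes is claimed. With chromosome medians removed, 17 N-glycosylation genes fell and 3 rose (median log2 -0.20), and 6 transport genes fell and 6 rose (median log2 -0.03). The chaperone list changed little, with 15 genes lower and 3 higher (median log2 -0.30). After that step the transport list had as many rises as falls, with ARCN1 at -0.07 (edgeR adjusted p = 0.427) and TMED10 at -0.03 (edgeR adjusted p = 0.699).

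The promoter of CRELD2, an endoplasmic reticulum protein induced by misfolding, is shown for the stress element ERSE, searched as CCAAT, any 9 letters and CCACG, here on the other strand and in capitals, 61 bases before the start (RefSeq, GRCh38.p14, plus strand, chr22:49918459-49918633). The stretch is 175 bases long because bases in exons of the divergent neighbour ALG12 or of longer CRELD2 transcripts were dropped.
CRELD2: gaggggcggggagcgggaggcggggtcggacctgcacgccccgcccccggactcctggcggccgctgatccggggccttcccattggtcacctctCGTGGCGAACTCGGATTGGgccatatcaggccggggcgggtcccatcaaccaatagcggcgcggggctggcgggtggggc
The element occurs in 0.07% of promoter entries and in 7 of 23 members present in the table: CALR, CANX, CRELD2, HSP90B1, HSPA5, PDIA6 and XBP1. Of these, CALR, CRELD2, HSPA5 and PDIA6 fell, HSP90B1 rose, and CANX (-0.18) and XBP1 (-0.06) did not pass. CRELD2 had 29.1, 34.0 and 36.4 CPM in suspension and 46.4, 60.2 and 51.4 CPM in adherent knockdown cells, and ALG12, an N-glycosylation mannosyltransferase read from the same stretch, fell by 0.56. The median of chromosome 22, which holds both, was -0.27.

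Amino acid and glucose transporters fell: 17 of 24 fell and 5 rose (median log2 -0.53), and 14 fell with chromosome medians removed. SLC3A2, the shared heavy chain of the amino acid exchangers, had 93.1, 90 and 100 CPM in suspension and 377, 310 and 382 CPM in adherent knockdown cells, 3.77-fold lower (log2 -1.91 ± 0.12, SE; edgeR adjusted p = 2.47e-10). SLC1A3, a glutamate carrier, fell by 1.31, SLC7A11, the cystine carrier, by 0.84 and SLC7A5 by 0.63. SLC2A3, a high-affinity glucose carrier, rose by 1.57. TXNIP, an arrestin-like protein that removes glucose carriers from the surface and is induced by glucose, had 99.4, 105 and 102 CPM in suspension and 7.55, 9.07 and 8.44 CPM in adherent cells, 12.3-fold higher, and its relative ARRDC3 rose by 2.12. Targets of ATF4, the amino acid stress factor, were nearer the background, with 14 of 32 higher and 7 lower. Of these NUPR1 rested on 73 suspension and 8 adherent reads (ratio 9.044, 95% exact interval 4.356 to 21.74), and DDIT3 did not pass, at 5.36, 4.8 and 5.05 CPM in suspension and 5.3, 5.63 and 3.93 CPM in adherent cells.

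Neuronal genes, part of the known HEK293 profile, were higher in suspension for 8 of 13 and lower for 3 (median log2 0.85). L1CAM, a neural adhesion molecule, had 9.3, 9.0 and 10.4 CPM in suspension and 1.44, 0.804 and 1.77 CPM in adherent knockdown cells. SNAP25, a synaptic vesicle fusion protein, rose by 2.62 and MAP2, a microtubule protein of dendrites, by 2.54. Among neurofilaments, NEFL rose to 140, 160 and 158 CPM in suspension, against 108, 112 and 104 CPM in adherent cells, whereas NEFM fell by 0.75 and INA by 0.34.

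HOX genes, which set position along the body axis and sit in 4 clusters, were chosen for description after their values were seen. In the HOXA cluster 9 of 11 fell (median log2 -0.97) and in HOXB 8 of 9 fell (median -0.94), with none higher in either. In HOXC 3 of 7 fell, and in HOXD 1 of 8 fell and 1 rose. HOXA10 had 40.1, 40.0 and 43.3 CPM in suspension and 105, 119 and 108 CPM in adherent knockdown cells (log2 -1.42 ± 0.08, SE; edgeR adjusted p = 9.37e-11). HOXB lies on chromosome 17, with its median of -0.36, whereas HOXA lies on chromosome 7, whose median was 0.05.

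**Figure D3:**
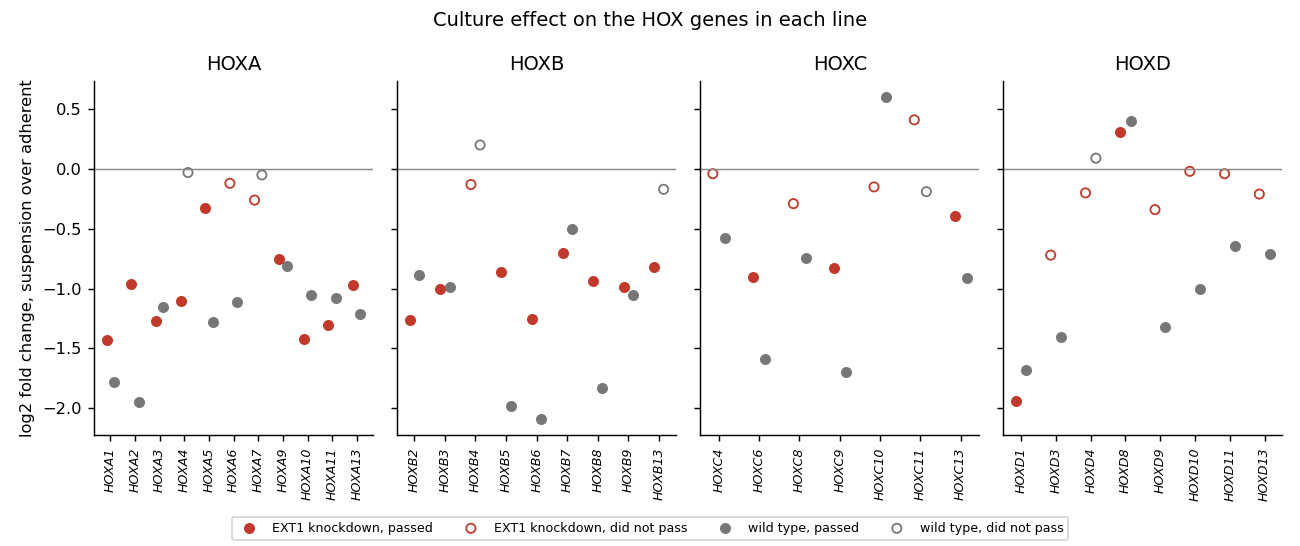
Culture effect (log2 fold change, suspension over adherent) of each measured HOX gene by cluster, in knockdown cells (red) and wild-type cells (grey), filled where the gene passed. HOXA and HOXB genes lay mostly below 0 in both lines, with knockdown medians of -0.97 and -0.94.

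Wild-type cells in the same cultures share no library with the knockdown comparison, and most culture effects were alike in the 2 lines. In wild type 4735 genes rose (27.7%) and 4799 fell (28%). Of the 4579 rises in the knockdown line 3015 also passed higher in wild type (65.8% of the knockdown rises and 63.7% of those in wild type), and of the 4955 falls 3095 were shared (62.5% and 64.5%). Only 135 knockdown rises passed as falls in wild type, and 304 knockdown falls as rises. Across 11689 genes with a mean of at least 5 CPM, Pearson's r between the 2 culture effects was 0.73 and Spearman's rho 0.70, as a description across genes, which are not independent.

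The BMP, p53 and sterol lists kept their main direction in both lines. Wild-type cells had 11 of 18 TGF-beta and BMP targets lower and 5 higher, and 21 of 23 p53 targets higher and none lower. Of the 27 sterol genes 24 rose and 1 fell there, but for 13 of them the size of the change differed between lines, as given below. In wild type ID1, ID3 and SMAD6 fell by 4.45, 4.78 and 3.80 on the log2 scale, and the test of the difference between lines did not pass for any of them (edgeR adjusted p = 0.428, 0.964 and 0.492). CDKN1A rose by 2.11 in wild type (difference 0.18; edgeR adjusted p = 0.384), and SULF1 by 3.47 (difference -0.09; edgeR adjusted p = 0.86). A p above the threshold does not show that the 2 lines were equal.

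**Figure D4:**
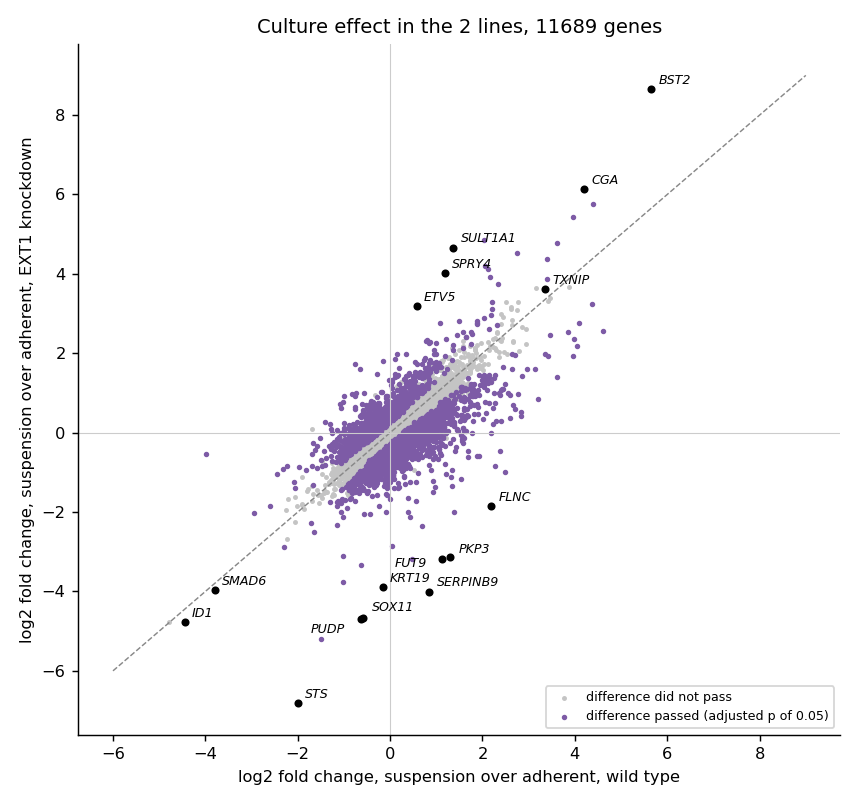
Culture effect (log2 fold change, suspension over adherent) of 11689 genes, with wild-type cells on the x axis and knockdown cells on the y axis; purple points passed the test of the difference between lines. Most points follow the diagonal, while STS, SOX11, PUDP, FUT9 and PKP3 lie far below it and SULT1A1, BST2 and SPRY4 above it.

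The culture effect differed between lines for 4114 genes (24%), with 1618 above 0 (9.45%) and 2496 below 0 (14.6%), where above 0 means a more positive change in the knockdown line. ERK feedback genes were among those above 0. Of 21 members 11 lay above 0 and 1 below (median difference 0.58), and in wild type 10 rose (median log2 0.21). SPRY4 in wild type had 21.5, 24.2 and 22.2 CPM in suspension and 9.53, 10.7 and 9.75 CPM in adherent cells, so the suspension levels of both lines overlapped and the adherent level was far lower in the knockdown line (difference 2.84; edgeR adjusted p = 1.21e-08). ETV5 in wild type had 42.5, 43.5 and 42.1 CPM in suspension and 26, 30.3 and 29.5 CPM in adherent cells, so here too the lines lay further apart in adherent culture (difference 2.60). GADD45B, a stress-induced regulator, rose by 1.61 in the knockdown line and fell by 0.66 in wild type (difference 2.27; edgeR adjusted p = 7.6e-08).

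Sterol genes differed in the other direction: 13 of 27 lay below 0 and none above (median difference -0.38). Of these 13, 9 lie on the 9 chromosomes with a median of -0.2 or lower, 5 of them on chromosome 11. With chromosome medians removed, 12 lay below 0 and none above (median difference -0.32). HMGCS1 in wild type had 807, 761 and 773 CPM in suspension and 154, 209 and 166 CPM in adherent cells, so adherent levels overlapped between lines and the suspension level was lower in the knockdown line (difference -0.77; edgeR adjusted p = 0.000241). Matrix genes differed likewise, with 17 of 38 below 0 and 4 above. SPARC, a collagen-binding matricellular protein, fell to 11.7, 11.7 and 14 CPM in knockdown suspension cells, against 24.1, 24.0 and 25.9 CPM in knockdown adherent cells. In wild type it rose to 70.4, 74.7 and 68.5 CPM in suspension, against 12.5, 13.1 and 12.7 CPM in adherent cells (difference -3.46; edgeR adjusted p = 5.94e-13).

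Among the most negative differences were genes with low levels in knockdown suspension cells. SOX11 fell by 4.67 on the log2 scale in the knockdown line and by 0.59 in wild type, where it had 26.5, 27.8 and 22.5 CPM in suspension and 37.1, 36.5 and 41.7 CPM in adherent cells (difference -4.09; edgeR adjusted p = 5.94e-13). SERPINB9, an inhibitor of granzyme B, had 0.814, 0.912 and 0.729 CPM in suspension and 13.6, 12.7 and 13.6 CPM in adherent knockdown cells, but 4.42, 4.68 and 4.56 CPM in suspension and 3.28, 2.61 and 1.78 CPM in adherent wild-type cells. FUT9, which adds fucose to form the Lewis x epitope, PKP3 and FLNC reversed in the same way, with differences of -4.31, -4.42 and -4.05.

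Genes of whole chromosomes shifted together in the knockdown line, by amounts that are close to the smaller changes above. HEK293 is hypotriploid with a variable karyotype, and whether gene copies differ between these cultures was not tested. Over 11647 genes with a mean of at least 5 CPM, the median log2 change in suspension was -0.41 on chromosome 14, -0.37 on chromosome 11, -0.36 on chromosome 17, -0.31 on chromosome 3 and -0.29 on chromosome 13. In all, 9 of 23 chromosomes had a median of -0.2 or lower, and the highest medians were 0.12 on chromosomes 2, 9 and X. Wild-type medians lay between -0.22 and 0.13, at -0.04 for chromosome 14 and 0.13 for chromosome 11. The 3 suspension libraries lay below the 3 adherent ones on 12 chromosomes and above them on 9 (exact permutation p = 0.1 for each of these, the smallest possible). On chromosome 14, 51.3% of tested genes fell and 12.3% rose, while on chromosome 2, 15.8% fell and 38.6% rose.

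**Figure D5:**
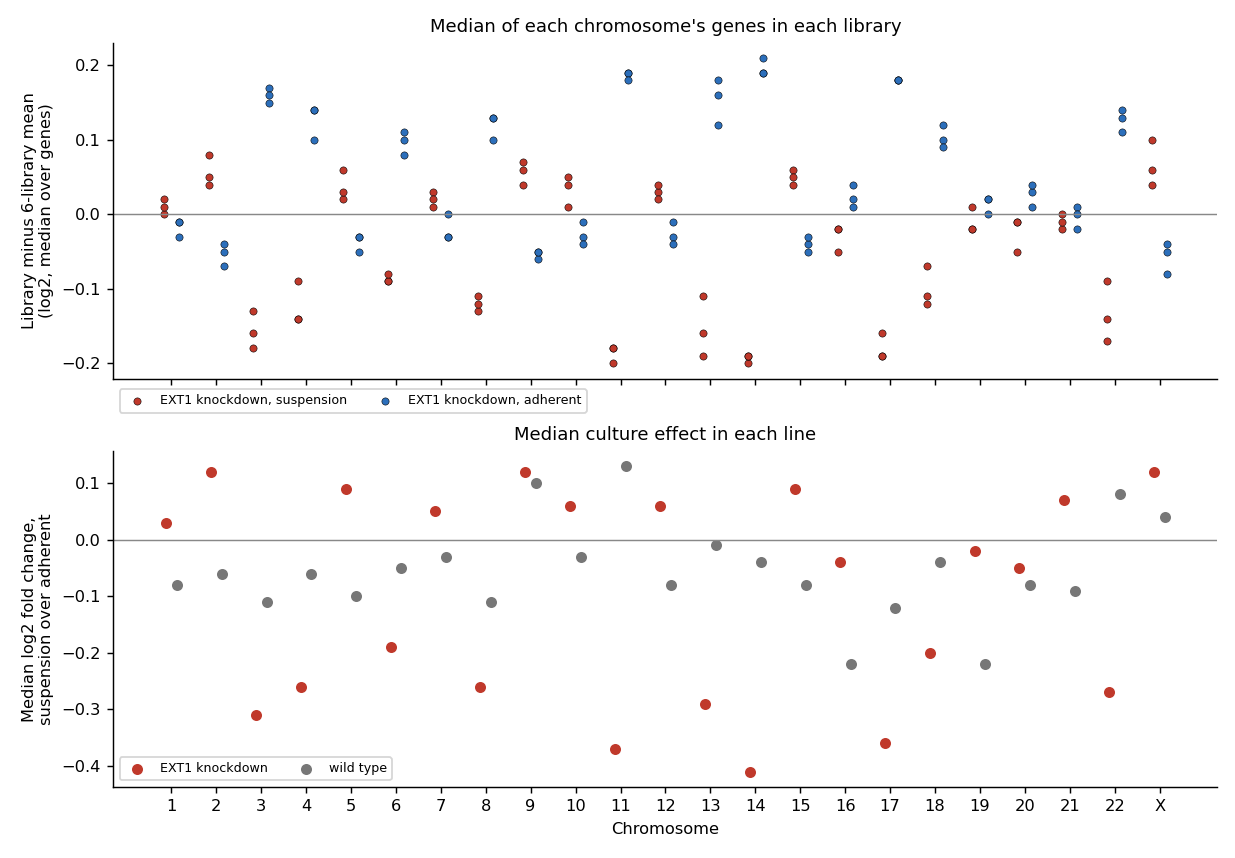
Upper panel, median deviation (log2) of each knockdown library on each chromosome from the mean of the 6 libraries; lower panel, median culture effect (log2 fold change, suspension over adherent) per chromosome in knockdown and wild-type cells. Chromosomes 14, 11 and 17 stand lowest in the knockdown line, at -0.41, -0.37 and -0.36, whereas wild-type medians lay between -0.22 and 0.13 over all chromosomes.

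Of 153 windows of 20 Mb with at least 20 genes, 9 departed from their chromosome's median by 0.2 or more. That cutoff is as large as the one for a low chromosome, so smaller unevenness is not counted. On chromosome 8, with a median of -0.26, windows ran from -0.37 to -0.08 and none was counted. The start of chromosome 5 (bases 1 to 20000000) stood at -0.33 over 46 genes, against 0.09 for the whole chromosome. When each gene's change was measured against its own chromosome's median, 9057 genes passed, 5150 higher and 3907 lower, of which 7728 had passed in the same direction before. The number of genes that differed between lines then fell to 2620, with 1188 above 0 and 1432 below. Of the 193 genes that the naming rule picks, 186 kept their call under this step and 7 lost it, ARCN1 and TMED10 among them.

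At the tip of Xp a pair of neighbouring genes stood out against the X median of 0.12. PUDP (X, 7048920 to 7148190, minus strand, GRCh38), a phosphatase for pseudouridine 5'-phosphate, had 1.02, 1.64 and 0.673 CPM in suspension and 28.6, 30.1 and 27.5 CPM in adherent knockdown cells (log2 -4.69 ± 0.22, SE; edgeR adjusted p = 2.4e-12). STS (X, 7219456 to 7354810, plus strand) lies next to it. In wild type both were intermediate: STS had 1.12, 1.70 and 1.66 CPM in suspension and 6.73, 6.87 and 4.37 CPM in adherent cells, and PUDP 4.54, 6.09 and 5.94 CPM in suspension and 9.95, 9.03 and 6.63 CPM in adherent cells. The next well-expressed gene, ANOS1 (X, 8528874 to 8732186), did not share the fall, at 122, 117 and 113 CPM in suspension and 72.1, 70.3 and 66.8 CPM in adherent knockdown cells. STS has a pseudogene copy on another chromosome, so its low counts carry some uncertainty of assignment.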

How the data were processed

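Poly(A) RNA of 12 HEK293 libraries was sequenced on an Illumina NovaSeq X Plus, per the labels' protocols. The authors deposited raw read counts per gene and FPKM values (fragments scaled to gene length and library size). Reads were aligned to GRCh38 with HISAT2 and counted with featureCounts 1.5.0, per the submitters' processing notes; the sources used here give no HISAT2 version, annotation release or strand setting. Per the labels' protocols a library may or may not mark strand, so overlapping and antisense genes, and near-identical copies, are uncertain.

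Counts were scaled by TMM and tested with edgeR 4.0.16 (R 4.3.3): filterByExpr by group kept 17115 of 58735 genes (99.9% of reads), and the quasi-likelihood F-test used 1 mean per group over all 12 libraries (8 residual degrees of freedom), with Benjamini-Hochberg adjustment over all genes tested and a threshold of 0.05. The contrasts were suspension minus adherent in knockdown cells, the same in wild type, and their difference. Each SE was taken as the absolute log2 fold change over the root of F. CPM uses TMM-scaled library sizes. For genes described singly that had under 10 reads in a library, the ratio of summed reads is mostly given, with a 95% exact binomial interval. Alternatives used DESeq2 1.42.0, limma 3.58.1 on counts and on log2(FPKM + 1) or log2(FPKM + 0.1), other scalings and filters, a replicate block, chromosome medians removed, and each knockdown library left out. To remove chromosome medians, each library's median log2 deviation on a chromosome, over genes with a mean of at least 5 CPM, was added to the offsets.

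Counts were simulated for the 17115 genes tested, with 50 genes changed per fold size, and 16752 genes passed the filter again. The fit of the knockdown culture contrast recovered 26% at 1.25-fold, 54% at 1.5-fold, 76% at 2-fold and 92% at 4-fold, and called 6 of 16557 unchanged genes. A changed gene that the filter dropped was counted as not recovered. Far fewer genes were changed there than passed in the real contrast, which makes the adjusted threshold stricter. These shares therefore do not give the recovery in the real data. Depth was 13.9 to 17.7 M reads per knockdown library.

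Named genes are EXT1 and those picked by the following rules. The first takes the 15 largest rises and the 15 largest falls. These are protein-coding genes that passed, with a mean of at least 5 CPM and groups that do not overlap. The next takes up to 4 passing members of each of 46 gene lists with the largest change. The last takes the 8 largest differences between lines of each sign. These are protein-coding genes that passed that test and the knockdown comparison, with a mean of at least 5 CPM over the 12 libraries. The 193 genes so picked all passed in the main fit. Up to 2 well-known members per list are described as well, whether or not they passed. They are not among the 193 unless a rule picked them. Other genes named were chosen after their values were seen, and so were the HOX genes. The members and lists were chosen with earlier results of these data known. Sequences are from RefSeq promoter entries (GRCh38.p14), searched on both strands. A few members of the gene lists are not reported here by name.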

Additional observations from a re-analysis of the deposited data

Results flagged for a closer look

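Among protein-coding genes with a mean of at least 5 CPM over the 12 libraries that passed in the knockdown comparison, these 16, 8 of each sign, had the largest differences between the culture effect of the knockdown line and that of wild type, as tested by edgeR's interaction term; each value is the knockdown log2 fold change minus the wild-type one. Above 0 were SULT1A1 (3.29), BST2 (3.01), SPRY4 (2.84), PLXNA4 (2.82), ETV5 (2.60), GADD45B (2.27), ETV4 (2.15) and FHAD1 (2.01). Of these, GADD45B rose by 1.61 in the knockdown line and fell by 0.66 in wild type, while the other 7 passed higher in both lines. BST2 and BISPR rest on adherent values at or near 0 in both lines, so the size of that difference depends on the prior count of the fit. Below 0 were SERPINB9 (-4.86), STS (-4.82), PKP3 (-4.42), FUT9 (-4.31), SOX11 (-4.09), PUDP (-4.07), FLNC (-4.05) and KRT19 (-3.73). STS, SOX11 and PUDP fell in both lines, by more in the knockdown line. SERPINB9, PKP3, FUT9 and FLNC fell in the knockdown line and rose in wild type, with wild-type log2 changes of 0.85, 1.29, 1.12 and 2.19. KRT19 fell by 3.89 in the knockdown line and did not pass in wild type (-0.16; edgeR adjusted p = 0.261).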

How the results depend on the processing

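Under 18 alternative settings every count of genes changed by culture in knockdown cells stayed within 1.5 times its value of 9534: between 8433 and 8842 with 1 knockdown library left out, and between 9057 and 9983 otherwise. The share of these genes that were higher was 48%, and between 47.9% and 56.9% elsewhere, the highest with chromosome medians removed. Genes that differed between lines numbered 4114, and between 3142 and 3621 with 1 library left out. With chromosome medians removed they numbered 2620, and those below 0 1432 in place of 2496, while those above 0 numbered 1188 in place of 1618. Chromosomes with a median of -0.2 or lower numbered between 7 and 10 in place of 9. Chromosome medians near 0 changed sign: chromosome 1 to -0.01 with a mean of at least 20 CPM, chromosome 16 to 0.03 without TMM and to 0.01 with a mean of at least 1 CPM, and chromosome 20 to 0.02 without TMM and to 0.01 without suspension replicate 1 (between -0.06 and 0.01 with 1 library left out). The cause was not tested. The mitochondrial share differed by 1.82 percentage points, and by 1.52 to 2.4 with 1 library left out.

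Of 193 named genes, 176 kept direction and call in every setting that tested them and 17 lost the call in at least 1, with none reversed: EXT1, SMPDL3A, NR1H3, DGAT2, ANKRD37, CYC1, MT-CO1, MT-CO2, MT-CO3, MT-ND4L, ARCN1, TMED10, HSP90AA1, OSGIN1, GPX1, MT1X and KRT80. Not every setting tested all 193: the stricter filter held 188 of them. Leaving out mitochondrial genes held 189, and the fit of only the 6 knockdown libraries held 192. The 193 genes had all passed in the main fit, so these counts do not cover described genes that did not pass. The 16 genes named for the difference between lines changed under no setting that tested that difference. EXT1 lost its call in 5 settings, among them without adherent replicate 3 (0.28; edgeR adjusted p = 0.0519) and without suspension replicate 3 (0.23; edgeR adjusted p = 0.0951).

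Replicates share numbers between cultures, but same-numbered libraries did not deviate together (correlations of -0.01, 0.15 and -0.18). Only replicate 2 matched its own number best. No pairing by number was thus seen, although 3 libraries per culture are too few to exclude it. With a replicate block 9463 genes passed, and 4019 differed between lines.

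With 3 libraries per group and 13.9 to 17.7 M reads each, genes below about 1 CPM rest on few reads. On simulated counts changes under 1.5-fold were often missed. Few genes were changed there, against 9534 that passed in the real contrast, so the simulation does not tell how many such changes were missed here.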

Other observations

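Several other gene groups were counted in the same contrast, knockdown suspension against knockdown adherent cells. Lysosome and autophagy genes fell more often than they rose, with 16 of 33 lower and 8 higher (median log2 -0.18). The counts were 14 lower and 9 higher with chromosome medians removed, and the median log2 was then -0.02. CTSZ, a lysosomal carboxypeptidase, had 16.6, 17.3 and 18.2 CPM in suspension and 69.2, 70.8 and 66.8 CPM in adherent knockdown cells, whereas in wild type it was higher in suspension (log2 1.39; difference -3.37, edgeR adjusted p = 4.76e-13). CTSD, the protease cathepsin D, fell by 1.67 and LAMP1, a lysosomal membrane protein, by 1.27. Of 13 metallothionein and metal transport genes 7 fell and 1 rose, among them TFRC, the transferrin receptor, at 175, 189 and 188 CPM in suspension and 383, 364 and 372 CPM in adherent cells. Proteasome subunits fell for 17 of 31 and rose for 4, and 10 fell with chromosome medians removed, 16 of the 31 lying on the 9 low chromosomes. Cytosolic ribosomal proteins, whose reads are shared with pseudogenes, rose for 20 of 54 and fell for 2 (median log2 0.14). Of these 54, 30 rose and none fell with chromosome medians removed (median log2 0.26). Of 13 mitochondrially encoded proteins 5 rose and none fell, and of 38 nuclear-encoded oxidative phosphorylation genes 4 rose and 9 fell. Without 1 knockdown library these rises were between 3 and 9 for the mitochondrially encoded genes and between 2 and 8 for the nuclear-encoded ones, 9 without suspension replicate 3 and 8 without suspension replicate 1. Of the nuclear-encoded genes, 7 rose and 6 fell with chromosome medians removed.

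Factors for attachment and entry of adeno-associated virus, which bear on the use of these cells, fell for 14 of 29 and rose for 6, or 9 and 7 with chromosome medians removed. VPS51, a subunit of a Golgi tethering complex on chromosome 11, had 32.6, 33.0 and 40.0 CPM in suspension and 91.7, 95.5 and 91.3 CPM in adherent knockdown cells. KIAA0319L, the common receptor, rose by 0.24. Of 16 Notch genes 7 fell and 3 rose, with the target HEY1 lower by 1.75 (log2 -1.75). Wnt targets (4 higher and 5 lower of 18), glycolysis (7 and 8 of 21), HIF targets (11 and 8 of 23), NRF2 targets (9 and 9 of 25) and FOXO targets (9 and 8 of 23) were more evenly split; without suspension replicate 1 the NRF2 targets lower numbered 4. Of 20 cytosolic heat shock proteins, 4 rose and 9 fell. After chromosome medians were removed, 8 Wnt targets were higher and 4 lower, 10 NRF2 targets higher and 4 lower, and 5 heat shock proteins higher and 4 lower. HSPB1, a small heat shock protein, rose by 1.5 and NQO1, a quinone reductase, by 1.75.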
